A study of Mus musculus with 13 samples.

Results

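The comparison described here sets tumor-infiltrating leukocytes taken at T7, 7 days after the start of irradiation, from irradiated tumors against those of unirradiated tumors of the same phase. The 3 T7 samples, out of 13 samples in the series, were chosen by labels that give a phase name and 0, 2 or 7.5 Gy. That the phase is T7 was inferred from the study's design. The doses were likewise read as 5 fractions of 2 Gy (2 Gy × 5) and 1 of 7.5 Gy (7.5 Gy × 1). All 3 came from CT26 tumors, a mouse colon carcinoma line grown in the right flank of female BALB/c mice that the study's methods give as 6 weeks old, irradiated locally with X-rays. CD45+ cells were isolated magnetically from the dissociated tumors, and their RNA was read with the nCounter mouse immunology panel, in which each transcript is counted by a colour-coded probe with no amplification step. The methods give 3 mice per group, but the tables hold 1 sample per condition and whether it pools those mice is not stated. No difference given here therefore has a replicate check, none was tested, and the 95% intervals cover counting error only. Since each sample is bulk RNA, fewer cells of a type and less RNA per cell cannot be told apart.

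As background, interferons act through receptors on nearly every cell. The complex formed on type I interferon signalling, which includes STAT2 and IRF9, binds the interferon-stimulated response element, whereas interferon-γ signalling acts through the gamma-activated site. The induced genes sense viral RNA and DNA, present peptides on MHC class I, recruit T cells by chemokines and include Cd274, the gene of the checkpoint ligand PD-L1. In irradiated tumors this response is usually read beside infiltration by cytotoxic lymphocytes and by myeloid cells that can either present antigen or restrain T cells.

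Genes whose raw count averaged 13.1 or less over all 13 samples, the background set by the negative controls, were left out, and 415 of 547 panel genes remained. The T7 samples held 263928, 282568 and 448071 counts after no irradiation, the 5 fractions and the single fraction, in that order throughout, and were read in the same run. Levels are housekeeping-normalized counts, differences are log2 of their ratio to the 0 Gy sample, and a gene was called at a 2-fold difference. The median of all 415 genes was above 0 Gy in both irradiated samples, by 0.42 after 2 Gy × 5 and 0.48 after 7.5 Gy × 1. Much of the panel thus stood somewhat higher on this scale, and a list is best read against these medians. The 14 housekeeping genes themselves spread with an SD of 0.40 and 0.28 (log2). For scale, 2 unirradiated samples that shared a run differed at 2-fold, either way, at 27 genes (6.51% of the 415) between baseline and T2 and at 161 genes (38.8%) between T14 and T21. The T7 contrasts gave 87 genes after 2 Gy × 5 and 99 after 7.5 Gy × 1, so their number lies inside the range seen without irradiation. Ptprc, which encodes CD45, had 865, 1240 and 1548 counts, so the gene behind the isolation was well detected in every sample. Of 15 markers of CD45-negative cells on the panel, 11, 11 and 10 stood above background, and the summed level of the 12 that were kept was 2865, 3453 and 2329, against 4626, 7404 and 7523 for the 9 pan-leukocyte genes.

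On the housekeeping scale more genes were higher than lower after each regimen. Those higher after both included 11 of 15 type I interferon, 10 of 19 interferon-γ, 5 of 11 cytotoxic and 4 of 9 MHC class I genes. Of 23 chemokine genes 2 were among them, and of 8 MHC class II genes none. Over all 415 genes the share was 14.9%, against which no list count was tested. The chemokine and MHC class II counts are too small to be told apart from it. After 2 Gy × 5, 80 genes (19.3%) were higher and 7 (1.69%) lower than in the 0 Gy sample. After 7.5 Gy × 1, 92 genes (22.2%) were higher and 7 (1.69%) lower. Each list count given below is to be read beside these shares. Both contrasts use the same 0 Gy sample, so a low or high value there moves both, and the genes they share carry no independent support. The shared set held 62 genes that were higher (14.9%) and 4 that were lower (0.964%), the latter being Cxcl13, Cx3cr1, Blnk and Lilra5. Of the 62, 59 had counting intervals above 1 in both contrasts and 23 had intervals above 2 in both. In 15 of them the 0 Gy sample itself was at background, so for these the fold is at most a lower bound, and Il7 and Cd55 have none after either regimen and Tlr3 none after 7.5 Gy × 1. A fold or bound of at least 2 after both regimens was reached by 50 of the 62. The balance depends on the scaling. With a median-of-ratios factor in place of the housekeeping genes, 35 genes were higher and 23 lower after 2 Gy × 5, 48 and 25 after 7.5 Gy × 1, and 23 of the 62 remained. With total counts the balance held after 2 Gy × 5, at 35 and 23, but reversed after 7.5 Gy × 1, at 29 and 49. With the pan-leukocyte genes it reversed after both, at 17 and 52 and at 19 and 64. By normalized value, 11 of the 62 passed 2-fold after both regimens under all 3 other scalings tried.

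**Figure D1:**
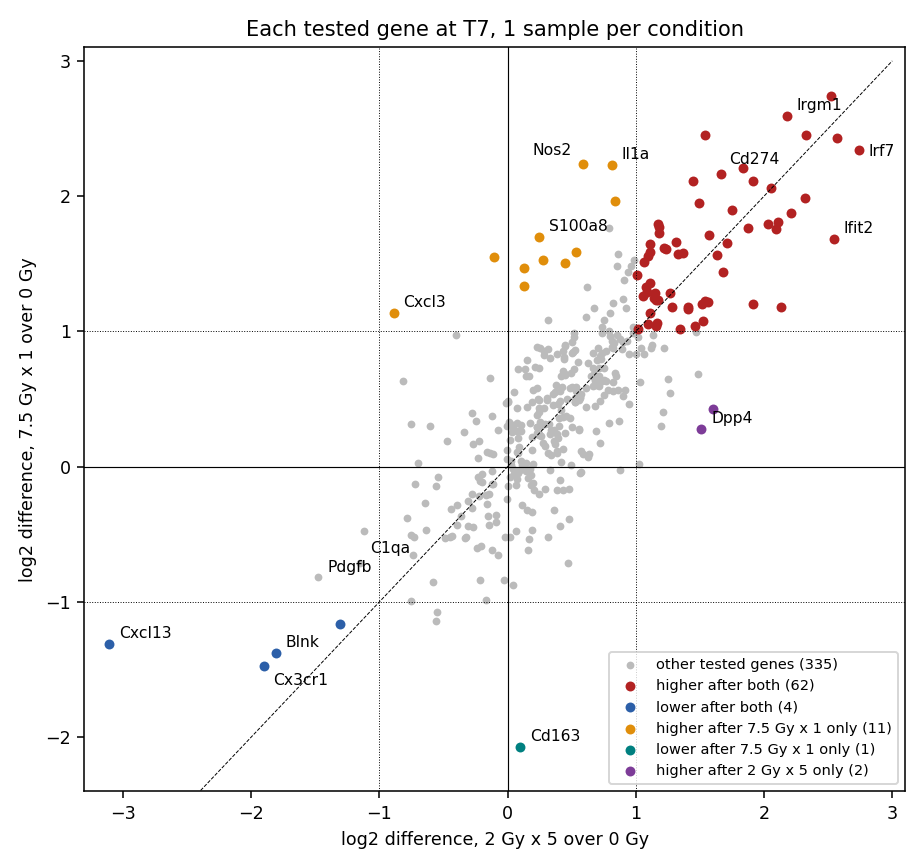
Each point is 1 of the 415 tested genes at T7, with the log2 difference of 2 Gy × 5 over 0 Gy on the x axis and of 7.5 Gy × 1 over 0 Gy on the y axis; dotted lines mark 2-fold and the dashed line equal differences. The 62 genes higher after both fill the upper right and 11 genes higher after 7.5 Gy × 1 only lie to their left; the 2 axes share the 0 Gy sample.

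Most type I interferon genes were higher after both regimens. Of its 15 tested members, 11 were 2-fold higher after 2 Gy × 5 and the same 11 after 7.5 Gy × 1, none was lower, and the list medians were 1.33 and 1.25, which is 0.91 and 0.76 above the medians of all genes. These medians stayed above 0 under each of the other scalings. Irf7, the transcription factor that amplifies interferon production, had 134, 754 and 785 counts. Its level was 6.68-fold (5.55 to 8.09) and 5.07-fold (4.22 to 6.13) that of the 0 Gy sample. Both irradiated samples were far above the control, and the 2 Gy × 5 sample was the higher of them. Stat2, a component of the type I interferon complex, had 14, 70 and 87 counts. The control was at background, so its fold was at least 4.75 and at least 4.30. Irf7 and Stat2 passed 2-fold under every scaling tried.

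Ifit2, an interferon-induced gene whose product restrains viral translation, had 129, 635 and 480 counts. It stood 5.85-fold (4.83 to 7.12) higher after 2 Gy × 5 and 3.22-fold (2.65 to 3.94) higher after 7.5 Gy × 1, with the single-dose level 0.551 (0.488 to 0.621) of the fractionated level. It was among the shared genes that differed most between the regimens. The RNA sensors Ifih1 (MDA5) and Ddx58 (RIG-I) had log2 differences of 1.52 and 1.20, and of 1.56 and 1.22. Ifi204, a member of the DNA-sensing IFI16 family, stood at 1.64 and 1.57. The antiviral membrane genes Ifitm1 and Bst2 stood at 1.33 and 1.57 and at 1.15 and 1.28. The receptor chains Ifnar1 and Ifnar2 did not pass, at 0.36 and 0.27 and at 0.36 and 0.46, nor did Sting1, the adaptor of cytosolic DNA sensing, at 0.53 and 0.86.

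The interferon-γ list had 12 of 19 members higher after each regimen, 10 of them after both and none lower, with medians of 1.08 and 1.58. Irgm1, a GTPase of cell-autonomous defence, had 398, 1516 and 2770 counts, a 4.52-fold (4.05 to 5.06) and 6.02-fold (5.42 to 6.71) difference that held 2-fold under every scaling. Cxcl10, the chemokine that draws CXCR3-bearing T and NK cells, had 148, 518 and 712 counts. Its normalized levels after the 2 regimens, 782 and 784, were nearly equal, at 4.16-fold (3.46 to 5.02) and 4.16-fold (3.48 to 5.00) the control. Cxcl9, a chemokine for the same receptor, had 256, 373 and 1006 counts and passed 2-fold only after 7.5 Gy × 1, at 0.79 and 1.77. The probe for NM_019494.1, which the annotation used here does not name, had 72, 349 and 557 counts and, by the smaller of its 2 values, the largest shared difference on the panel, at 2.53 and 2.74. Ifng itself had 10, 19 and 40 counts, with the control at background, which allows folds of at least 1.29 and at least 1.98.

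Promoter sequence was read for the shared genes because they include known interferon targets. RefSeq promoters of GRCm38.p6, each spanning 250 bases before to 50 bases after a transcript start, were matched by symbol for 43 of the 62 genes, too few for a comparison of the set with other genes, which is void. The 5 windows shown, each of 60 bases on the strand of the gene, come from genes whose values are given here and show matches to TTTCNNTTT (core of the interferon-stimulated response element; AAANNGAAA on the other strand) in capitals.
Irgm1, chr11:48871409-48871468, minus strand: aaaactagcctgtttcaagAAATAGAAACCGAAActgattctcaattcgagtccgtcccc
Cxcl10, chr5:92349067-92349126, minus strand: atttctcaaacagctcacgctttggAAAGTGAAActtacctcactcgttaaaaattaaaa
Stat2, chr10:128270251-128270310, plus strand: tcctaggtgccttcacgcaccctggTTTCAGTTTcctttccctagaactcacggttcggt
Cd274, chr19:29367238-29367297, plus strand: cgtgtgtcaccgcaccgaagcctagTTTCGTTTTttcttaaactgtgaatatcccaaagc
Fcgr4, chr1:171018829-171018888, plus strand: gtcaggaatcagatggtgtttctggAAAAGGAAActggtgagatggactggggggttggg
The Irgm1 window holds 2 overlapping matches. A match to these letters lay in 12 of the 49 promoters of the 43 genes, and the 5 windows were picked from those. It lay in 13.1% of the promoters of tested genes and in 10.6% of all 32851 promoters in the table. For the reason given above these shares are not compared. The gamma-activated site TTCNNNGAA, a palindrome that reads the same on both strands, lay in 8.30% of all promoters. One lies in the promoter of Fcgr1, chr3:96294044-96294103, minus strand: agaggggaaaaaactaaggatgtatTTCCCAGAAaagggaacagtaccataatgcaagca. These are letters in a window and not shown binding sites. Many shared genes held neither motif in the promoters read, among them Irf7, Klrk1, Tap1, Psmb9, Slamf7 and Lcp2.

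Genes of MHC class I presentation stood above the all-gene medians, whereas class II genes lay near them. Of 9 class I members, 4 were higher after both regimens and the medians were 0.93 and 0.97. Tap1, which carries peptides into the endoplasmic reticulum, had 410, 805 and 1450 counts, or 2.33-fold (2.07 to 2.63) and 3.06-fold (2.74 to 3.42). The immunoproteasome subunit Psmb9 stood at 2.58-fold (2.08 to 3.21) and 2.99-fold (2.45 to 3.67), whereas the constitutive subunit Psmb5 was at 0.01 and −0.15 (log2). Cd1d1, which presents lipids to NKT cells, had 9, 27 and 48 counts, at least 1.83-fold and at least 2.37-fold. Of 8 class II members, 1 was higher after 2 Gy × 5 and none after 7.5 Gy × 1, with medians of 0.29 and 0.56. That member was Ciita, the class II transactivator, at 1.02 and 0.96, and H2-Eb1 stood at 0.33 and 0.81. Relative to the all-gene medians the class II medians were −0.13 and 0.08, and under all 3 other scalings the 2 Gy × 5 median was below 0.

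Cd274 had 392, 1049 and 2031 counts. Its level was 3.18-fold (2.83 to 3.58) that of the control after 2 Gy × 5 and 4.48-fold (4.02 to 5.01) after 7.5 Gy × 1, and 1.41-fold (1.31 to 1.52) higher after the single dose than after the fractions. Both irradiated samples were thus well above the control in the leukocyte fraction, although scaled to the pan-leukocyte genes the 2 Gy × 5 difference was 0.87 (log2) and under 2-fold. Pdcd1lg2, encoding the related ligand PD-L2, had only 9, 15 and 30 counts, for folds of at least 1.02 and at least 1.48. Pdcd1, encoding their receptor PD-1, had 15, 14 and 30 counts. The first 2 of these were at background, so no fold is given for 2 Gy × 5, and after 7.5 Gy × 1 it was at least 1.48. Ctla4, another inhibitory receptor of T cells, stood at 0.61 and 1.11, and Tnfrsf14, the HVEM receptor of the BTLA and LIGHT axis, at 1.14 and 0.97. Of the 9 checkpoint genes tested, 2 were higher after 2 Gy × 5 and 3 after 7.5 Gy × 1. Over all 415 genes 19.3% and 22.2% were, and counts this small are not told apart from those shares.

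Fc receptors and complement split by member. Fcgr4, an activating receptor for IgG on monocytes, macrophages and neutrophils, had 412, 1310 and 2060 counts, or 3.78-fold (3.38 to 4.23) and 4.33-fold (3.89 to 4.82), and passed 2-fold under every scaling. Fcgr1, the high-affinity receptor, had 703, 1938 and 2562 counts, at 1.71 and 1.66. The other 4 tested Fc receptor genes did not pass, among them Fcer1g, the shared signalling chain, at 0.81 and 0.93. In the complement list 4 of 15 genes were higher after both, where 14.9% of all 415 genes were. Cfb, factor B of the alternative pathway, had 87, 365 and 398 counts, at 4.98-fold (3.93 to 6.37) and 3.96-fold (3.13 to 5.05), and C3, the central component, had 119, 298 and 451 counts, at 1.57 and 1.71. Against these, C1qa and C1qb, chains of the classical pathway recognition molecule made mainly by macrophages, were lower. C1qa had 3102, 1177 and 2194 counts, at −1.15 and −0.71, and C1qb had 2472, 956 and 2056 counts, at −1.12 and −0.47. They passed 2-fold after 2 Gy × 5 only, and direct comparison put both less than 2-fold higher after 7.5 Gy × 1, at 1.36-fold (1.26 to 1.46) and 1.57-fold (1.45 to 1.69).

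Of 11 CD8 and cytotoxic genes tested, 5 were 2-fold higher after both regimens, some of them from low counts. Of these, 8 were higher after 2 Gy × 5 and 5 after 7.5 Gy × 1, where 19.3% and 22.2% of all 415 genes were. The list medians were 1.22 and 0.98, and they stayed above 0 under each other scaling. Cd8a had 9, 22 and 57 counts, with the control at background, for folds of at least 1.49 and at least 2.82. Klrk1, the gene of the activating receptor NKG2D, had 45, 175 and 191 counts, 4.62-fold (3.31 to 6.56) and 3.67-fold (2.64 to 5.20). The granule protease gene Gzmb had 191, 463 and 465 counts, 2.88-fold (2.43 to 3.43) and 2.11-fold (1.78 to 2.51). The pore-forming Prf1 had 97, 190 and 206 counts, 2.33-fold (1.81 to 3.0) after 2 Gy × 5 and 1.84-fold (1.44 to 2.36) after 7.5 Gy × 1. Directly compared, the single-dose level was 0.732 (0.642 to 0.834) of the fractionated level for Gzmb and 0.790 (0.645 to 0.967) for Prf1, but 1.89 (1.14 to 3.24) for Cd8a. Of 6 NK genes, 3 and 4 were higher, including the receptor genes Klrc1 at 1.08 and 1.33 and Klrd1 at 1.02 and 1.02. Both Klrk1 and Klrd1 also belong to the cytotoxic list. Of 9 T cell genes, 1 and 3 were higher, beside the same 19.3% and 22.2% of all genes. Cd27, a co-stimulatory receptor, had 11, 21 and 42 counts, at least 1.43-fold and at least 2.08-fold. In the regulatory and CD4 list, Il2ra stood at 1.28 and 1.18, while Foxp3, the defining factor of regulatory T cells, had 24, 23 and 22 counts.

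Further shared genes belong to no single group. Slamf7, a receptor of NK cells and activated leukocytes, had 51, 185 and 207 counts, at 2.11 and 1.81. Il27, a cytokine of myeloid cells, had 12, 37 and 47 counts, at least 2.51-fold and at least 2.32-fold, and Lcp2 (SLP-76), an adaptor of antigen receptor signalling, 10, 36 and 39, at least 2.44-fold and at least 1.93-fold. Lilra6, of a paired immunoglobulin-like receptor family, had 9, 31 and 36 counts, at least 2.10-fold and at least 1.78-fold. Il7, the lymphocyte survival cytokine, had 3, 12 and 18 counts, of which only the last was above background. Its normalized level after 7.5 Gy × 1, 19.8, was still under the control's normalized background of 22.3, so its nominal difference has no fold. Il18, a cytokine released by the inflammasome, stood at 1.68 and 1.44. Ltb4r1, the leukotriene B4 receptor of neutrophils and T cells, stood at 1.49 and 1.95, and Tnf at 1.11 and 1.36. The 11 genes whose normalized values passed 2-fold under all scalings are Irf7, Stat2, Irgm1, Cxcl10, Fcgr4, Cfb, Klrk1, Slamf7, NM_019494.1, Cd1d1 and Il7, of which Il7 has no fold and Cd1d1 a bound under 2-fold after 2 Gy × 5. Members of families with close copies, here Lilra5, Lilra6, Klrc1 and Irgm1, are uncertain, since cross-hybridization of their probes was not checked.

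**Figure D2:**
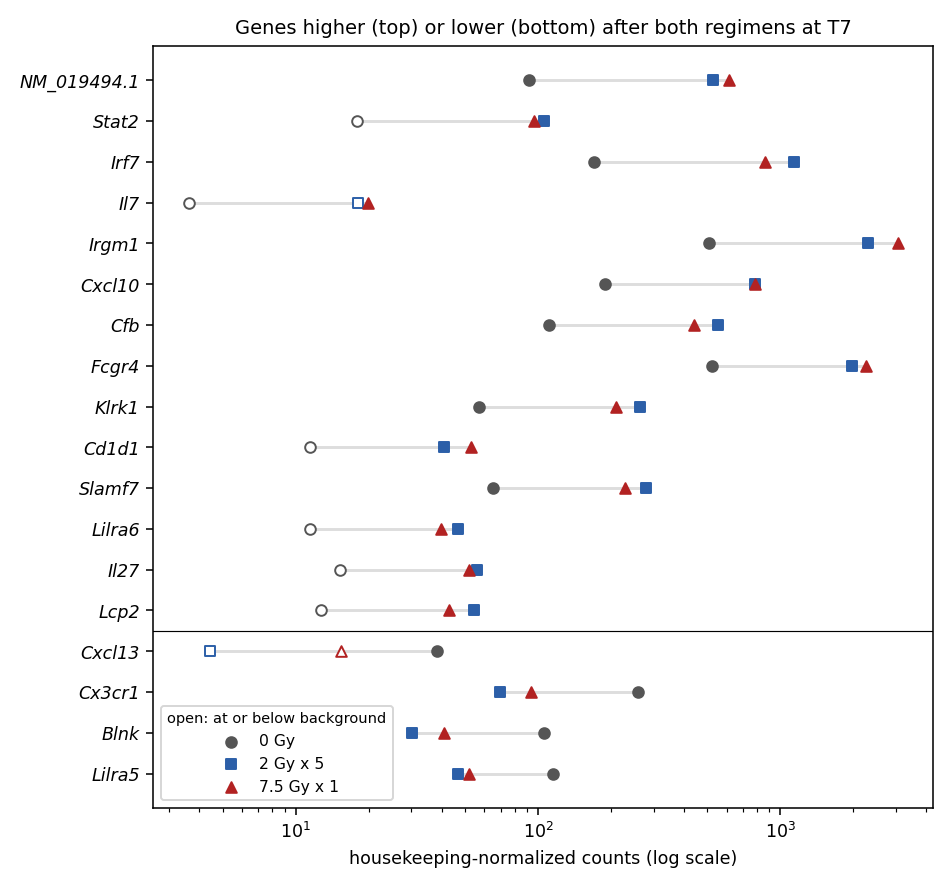
Housekeeping-normalized counts on a log axis in the 3 T7 samples for the 14 shared higher genes with the largest shared difference (by the smaller of the 2 values) and, below the line, the 4 shared lower genes; open symbols are counts at or below background. The 2 irradiated symbols lie close together for most genes and on the opposite side from the 0 Gy symbol in both panels.

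Only 4 genes were lower after both regimens. Cx3cr1, the fractalkine receptor of monocytes and macrophages, had 204, 46 and 85 counts, a level 3.73-fold lower after 2 Gy × 5 and 2.77-fold lower after 7.5 Gy × 1. Both irradiated samples lay below the control, the 2 Gy × 5 sample furthest. Blnk, an adaptor of B cell receptor signalling, had 83, 20 and 37 counts, 3.49-fold and 2.59-fold lower. Lilra5, an activating immunoglobulin-like receptor, had 91, 31 and 47 counts, 2.47-fold and 2.24-fold lower. Cxcl13, the B cell chemokine, had 30, 3 and 14 counts, with both irradiated samples at background, so it was at least 1.71-fold and at least 2.11-fold lower. The intervals of all 4 genes lay below 1 in both contrasts, and 3 of the 4 passed with a pseudocount of 10 or when counts above background were required. Blnk was the 1 gene lower after both of 8 tested B cell markers. Of these 8, 6 stood above the control after each regimen, with medians of 0.42 and 0.32. Over all genes the medians were 0.42 and 0.48, and 292 of 415 stood above the control after both. Pdgfb, a platelet-derived growth factor gene, had 116, 35 and 76 counts, at −1.48 and −0.82, and passed after 2 Gy × 5 only. It is 1 of 12 markers of CD45-negative cells, of which 1 was lower after each regimen and whose medians were −0.33 and −0.32. Against this, 4 and 5 of the 12 stood above the control. Among them Pecam1 passed 2-fold after 7.5 Gy × 1, at 0.68 and 1.17.

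Macrophage markers did not move together. Of 13 monocyte and macrophage genes, 3 were higher and 3 lower after 2 Gy × 5, and 3 higher and 2 lower after 7.5 Gy × 1. Fcgr1, Fcgr4 and Ccr2, the monocyte chemokine receptor at 1.34 and 1.02, were the higher ones in both. Cx3cr1 was lower in both, C1qa and C1qb after 2 Gy × 5, and the scavenger receptor gene Cd163 after 7.5 Gy × 1. Adgre1, encoding F4/80, stood at −0.79 and −0.38, and the level of Csf1r, the receptor for macrophage colony-stimulating factor, was 1187, 1186 and 1290. The summed level of the 13 genes was 15970, 16351 and 20113, so the sum differed less between samples than several of its members did.

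Other pathways stood close to the all-gene medians. None of 18 genes of apoptosis and DNA damage passed 2-fold in either contrast, and the list medians were 0.35 and 0.22. Cdkn1a (p21), the cell-cycle inhibitor induced by p53, had 1072, 1324 and 2123 counts, 1.47-fold (1.35 to 1.59) and 1.71-fold (1.59 to 1.85), and the largest member, Casp8, stood at 0.88 and 0.95. Relative to the all-gene medians the list medians were −0.07 and −0.27. Of 25 NF-κB and TNF signalling genes, 2 and 3 were higher, including Tnf and the kinase gene Map4k1 at 1.16 and 1.23, with medians of 0.33 and 0.27. Of 18 Toll-like receptor and adaptor genes, 3 and 2 were higher. Tlr5, the flagellin receptor, had 12, 38 and 32 counts, at least 2.58-fold and at least 1.58-fold, and Tlr3, the sensor of double-stranded RNA, 8, 15 and 19 counts, close to background throughout. Among 7 co-stimulatory ligands, Cd40, strictly a receptor on antigen-presenting cells, was the only one to pass, at 1.11 after 2 Gy × 5 and 0.87 after 7.5 Gy × 1. No gene of the mast cell, basophil and eosinophil list was kept.

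**Figure D3:**
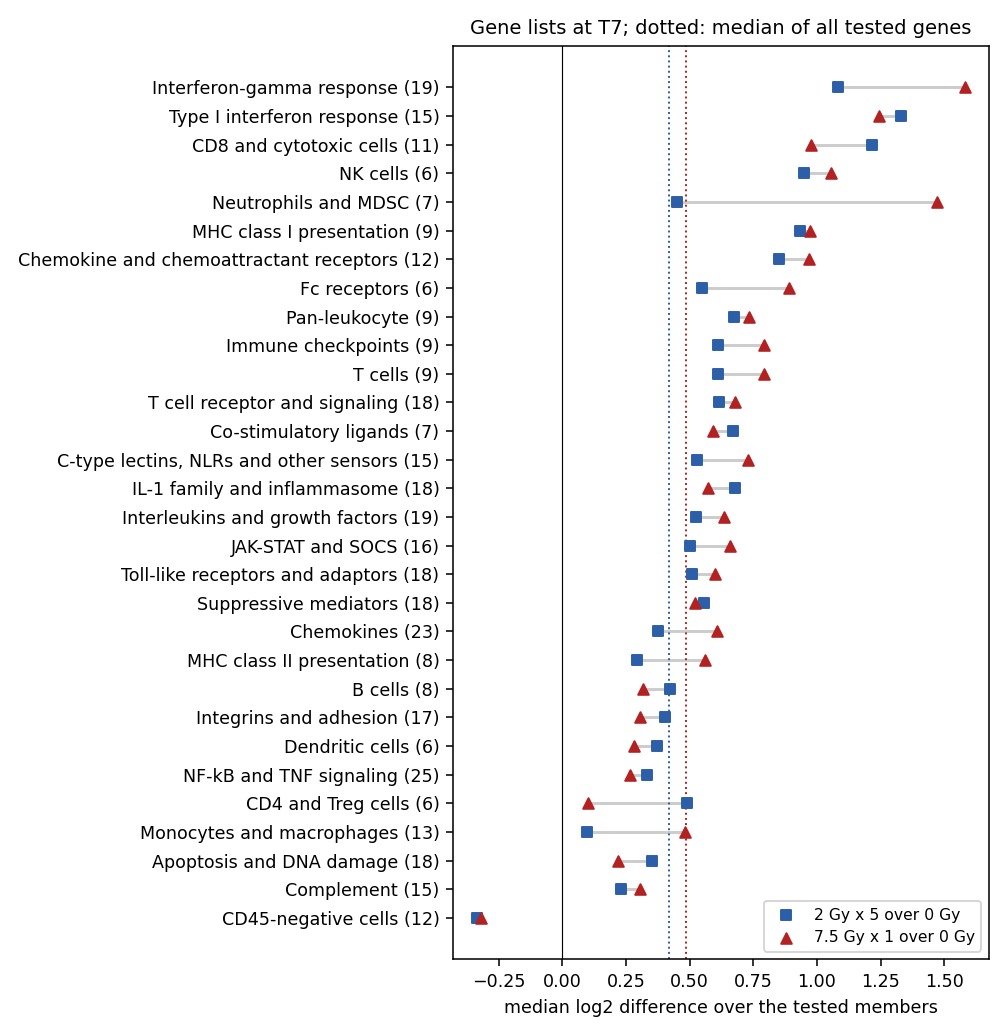
Median log2 difference from 0 Gy at T7 over the tested members of each gene list (number of members in parentheses) for 2 Gy × 5 (squares) and 7.5 Gy × 1 (triangles); dotted lines mark the all-gene medians of 0.42 and 0.48. The 2 interferon lists and the cytotoxic list lie to the right for both regimens, and the neutrophil list is far to the right for 7.5 Gy × 1 alone.

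Compared directly, the 2 irradiated samples differed at 2-fold at 19 genes, fewer than either contrast with the control. T7 is counted from the start of irradiation, so the time since the last dose may differ between these samples too. Its part in their differences was not tested. The median of all genes was 0.02, 15 genes (3.61%) were 2-fold higher after 7.5 Gy × 1 than after 2 Gy × 5, and 4 (0.964%) were lower. Those lower were Cd163, Dpp4, Fn1 and Ccl11. Within the shared set of 62 genes none differed at 2-fold between regimens and 55 were within 1.5-fold. Of all 415 tested genes, 347 were within 1.5-fold, so such closeness was common across the panel and not particular to the shared set. Among the 62, 36 were nominally higher after 7.5 Gy × 1 against 26 after 2 Gy × 5. A gene was taken as regimen-specific when it passed 2-fold against 0 Gy for 1 regimen only and also passed 2-fold between regimens. By this rule 11 genes (2.65%) were higher after 7.5 Gy × 1 only, 1 (0.241%) was lower after 7.5 Gy × 1 only, and 2 (0.482%) were higher after 2 Gy × 5 only. Of these 14 genes, 12 still met the rule with a median of ratios, 7 with total counts and 5 with the pan-leukocyte genes. Without the direct condition, 18 genes passed 2-fold above 0 Gy for 2 Gy × 5 alone and 30 for 7.5 Gy × 1 alone, so most of these did not differ at 2-fold between the regimens.

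The genes higher after 7.5 Gy × 1 only included neutrophil and inflammatory genes. S100a8 and S100a9 encode calprotectin, an abundant cytosolic complex of neutrophils and of myeloid-derived suppressor cells (MDSC). S100a8 had 4401, 4400 and 16482 counts and S100a9 8443, 7752 and 27068. Against 0 Gy, S100a8 stood at 1.19-fold (1.14 to 1.24) after 2 Gy × 5 and 3.24-fold (3.13 to 3.35) after 7.5 Gy × 1, and S100a9 at 1.09-fold (1.06 to 1.12) and 2.77-fold (2.71 to 2.84). The 0 Gy and 2 Gy × 5 samples were close and the 7.5 Gy × 1 sample stood apart. With a median of ratios, total counts and the pan-leukocyte genes, S100a8 stood at 1.22, 1.02 and 0.89 (log2) after 7.5 Gy × 1. S100a9 stood at 0.997, 0.80 and 0.66, under 2-fold in each. After 2 Gy × 5 both genes were below the control under all 3, at −0.19 and −0.32 with a median of ratios. On the housekeeping scale, all 7 tested neutrophil and MDSC genes were above the control after both regimens. So were 292 of all 415 genes, a share against which the 7 were not tested. Of the 7, 4 were 2-fold higher after 7.5 Gy × 1 and 1 after 2 Gy × 5, with medians of 1.47 and 0.45. Their summed level was 19107, 23035 and 53630. Cxcr2, the neutrophil receptor for CXCL chemokines, had 99, 114 and 325 counts, at 0.45 and 1.51. The neutrophil markers Camp and Ltf were at background in all 3 samples.

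Cytokine and chemokine genes were also in this set. Nos2, the inducible nitric oxide synthase of activated myeloid cells, had 34, 43 and 185 counts, 1.50-fold (0.936 to 2.43) and 4.71-fold (3.25 to 7.0). Il1a had 67, 99 and 363 counts, 1.75-fold (1.27 to 2.43) and 4.69-fold (3.60 to 6.18), and Il6 141, 144 and 471, 1.21-fold (0.955 to 1.54) and 2.89-fold (2.39 to 3.51). For Nos2 and Il6 the 2 Gy × 5 interval includes no difference from the control, while the 7.5 Gy × 1 interval lies above 2. Cxcl3, a neutrophil-attracting chemokine, had 123, 56 and 313 counts, so it was below the control after 2 Gy × 5 and above it after 7.5 Gy × 1, at −0.89 and 1.14, and differed 4.07-fold (3.06 to 5.51) between regimens, the largest direct difference upward on the panel. Il1rn, the natural antagonist of IL-1, passed against 0 Gy for 7.5 Gy × 1 alone, at 0.86 and 1.57, without passing between regimens. The remaining specific genes were the T cell receptor chain Cd3d with 32, 39 and 111 counts, the tissue-homing receptor Cxcr6 with 23, 18 and 78, the cytokine-signalling inhibitor Cish with 25, 23 and 73, and the nuclear receptor Pparg with 8, 12 and 36. Pparg was at background in the first 2 samples, so its fold against the control is at least 1.78. After 7.5 Gy × 1, Cxcl3 and Cish were under 2-fold above 0 Gy under all 3 other scalings. Nos2 and Il1a passed 2-fold under all 3. The part of the neutrophil markers in these cytokine values was not tested.

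Cd163, a hemoglobin scavenger receptor of macrophages, was the gene lower after 7.5 Gy × 1 only. It had 40, 36 and 11 counts, the last at background, which makes it at least 2.81-fold lower than 0 Gy and at least 3.01-fold lower than 2 Gy × 5. Dpp4 (CD26), a serine protease, and Ccl11 (eotaxin) were higher after 2 Gy × 5 only, with 10, 24 and 14 counts and 9, 23 and 14 counts. In both genes the 0 Gy and 7.5 Gy × 1 samples were at background, so their folds over 0 Gy are at least 1.63 and at least 1.56 and neither is secure at 2-fold.

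**Figure D4:**
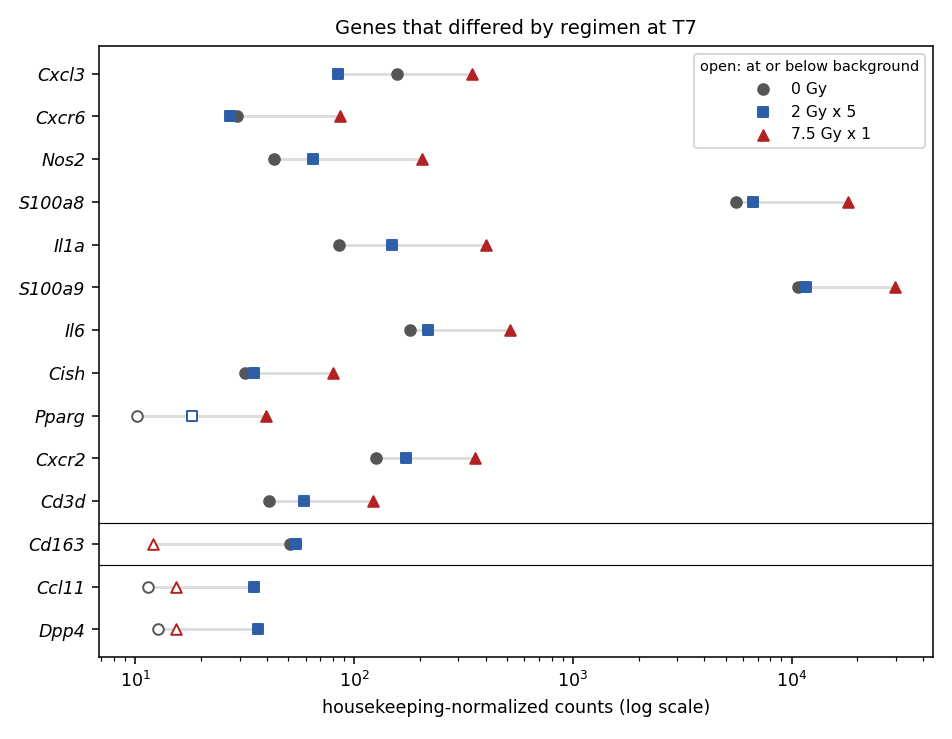
Housekeeping-normalized counts on a log axis in the 3 T7 samples for the 11 genes higher after 7.5 Gy × 1 only (top), the 1 lower after 7.5 Gy × 1 only (middle) and the 2 higher after 2 Gy × 5 only (bottom); open symbols are at or below background. For S100a8, S100a9, Cish and Cxcr6 the 0 Gy and 2 Gy × 5 symbols nearly coincide.

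The same genes were followed at the other phases against the 0 Gy sample of each phase. Days are counted from the start of irradiation, so the T2 sample labelled 2 Gy × 5 may not have received all 5 fractions. At T2, 2 of the 62 shared genes were 2-fold higher after 2 Gy × 5 and 11 after 7.5 Gy × 1, where 2.65% and 3.61% of all 415 genes were. Of the same 62, 2 and 10 were 2-fold lower at T2, as were 23 and 71 of all 415 genes. The set thus split both ways after 7.5 Gy × 1, with a median of 0.16. At T14 the counts were 18 and 22, against 15.9% and 11.8% of all genes, and the 2 Gy × 5 value there compares samples of different runs. At T21 they were 43 and 16, against 35.2% and 14.0% of all genes. The set was chosen at T7, so its T7 values are fixed by the choice and a smaller difference elsewhere carries no test. The differences of Irf7 at T2 were 0.25 and 0.75, those at T14 were 1.29 and 2.25, and those at T21 were 3.01 and 2.19. Cd274 stood at 0.99 and 0.37, 1.12 and 1.16, and 2.70 and 1.39 at these phases. Both were therefore above their phase's control in all 6 of these irradiated samples. For Cxcl10 they were 0.07 and 1.66 in T2 samples, −0.43 and 0.97 in T14 samples, and 1.41 and 0.69 in T21 samples. For 48 of the 62 genes the 2 irradiated T7 samples held the highest levels of all 13 samples, which were read in 3 runs. The same was true of 162 of all 415 genes. The 62 were chosen for high values in these 2 samples, so the larger share carries no test.

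Neither Cx3cr1 nor S100a8 kept its T7 pattern at all phases. Cx3cr1 at T2 stood at −0.44 and −1.02, then at 0.67 and −0.02 for T14 and 0.19 and 0.79 for T21. S100a8 at T2 stood at 2.04 and −0.83, then at 2.03 and −0.91 for T14 and 2.06 and 1.46 for T21. At T2 and T21 it was thus higher after 2 Gy × 5 than after 7.5 Gy × 1, the reverse of T7. The T14 order was that of T2, but it crosses runs, since the 2 Gy × 5 sample was not read with the other T14 samples. The same limit applies to the T14 value of Cx3cr1 after 2 Gy × 5.

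**Figure D5:**
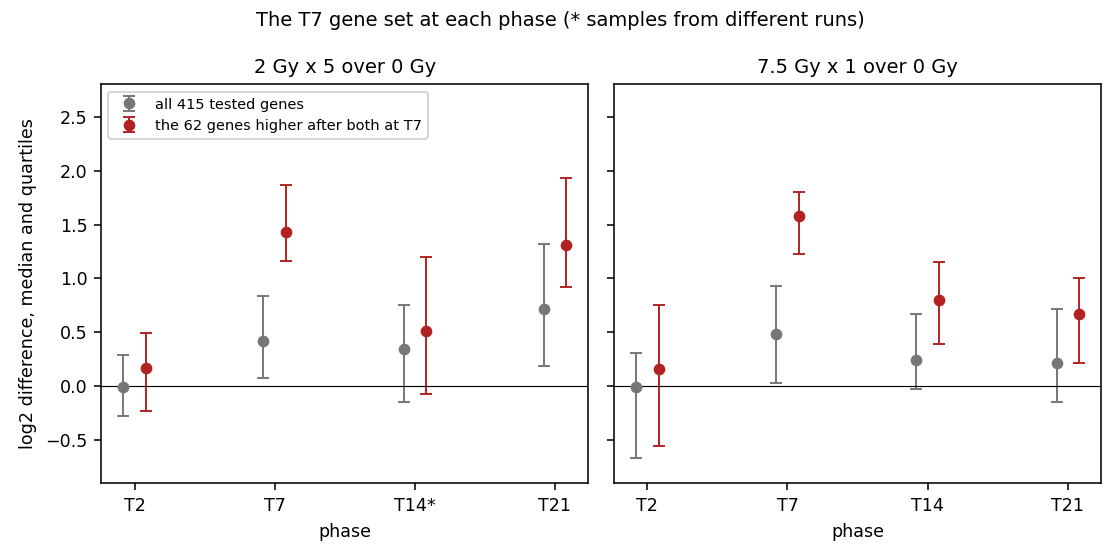
Median log2 difference from the 0 Gy sample of the same phase, with bars from the lower to the upper quartile over genes, for all 415 tested genes (grey) and the 62 genes chosen as higher after both regimens at T7 (red); left 2 Gy × 5, right 7.5 Gy × 1. The red medians are 0.17 and 0.16 at T2 and 1.31 and 0.67 at T21, and the T7 points are fixed by the choice of genes.

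The edge of the shared set was narrow. Just inside were Ccr7, the lymph-node homing receptor, at 1.01 and 1.42, Ccr2 at 1.34 and 1.02, and Klrd1 at 1.02 and 1.02. Just outside were Nod2, a sensor of bacterial cell walls, at 1.47 and 0.998, Pdcd1lg2 at 0.98 and 1.53, Pirb at 0.98 and 1.03, and Ptafr at 0.98 and 0.99. The counting intervals of all 7 genes include 2-fold in the contrast nearer the line, so the side on which each falls is within counting error.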

How the data were processed

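RNA of CD45+ cells from CT26 tumors was counted with the nCounter Analysis System in 13 samples, 1 per condition, in 3 runs; 415 of 547 panel genes are described for the 3 T7 samples. The raw counts are as deposited by the authors, per probe, from a panel with 14 housekeeping, 8 negative and 6 positive control probes. The authors' second deposited table holds a normalized signal. As its values show, each sample carries 1 housekeeping factor (1.27, 1.51 and 1.10 at T7) and a floor at the geometric mean of its negative controls, with 0 of 7111 not reproduced and 0 of 7475 different in the series table; the software is not given in the sources used here. Housekeeping scaling moves all genes of a sample together, and the floor compresses folds near background.

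Differences were taken as log2 of normalized values, with values under 1 set to 1. A count at or below the mean plus 2 SD of the sample's negative controls (17.5, 14.8 and 16.4 counts at T7) was at background. A fold against it is a bound, taken from that background, and with both samples at background no fold is given. Nor is one given where the higher normalized level does not exceed the normalized background of the other sample. Intervals are exact 95% binomial intervals of the ratio of 2 counts, scaled by the factors, and were tested on simulated data. With 1 sample per condition no test was run. Of 561 gene accessions, 549 matched a RefSeq symbol and 12 did not and enter no list.

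The groups, the 31 gene lists and the genes chosen for this text were set with earlier results of these data known. After the values were seen, 1 list symbol was updated to the name the annotation uses (Ddx58). Named genes are the 15 shared higher genes with the largest smaller difference, all shared lower genes, up to 8 regimen-specific genes per regimen and direction, 3 members per list by mean difference, 11 fixed genes and the genes next to the 2-fold line. Any other gene named was chosen after its values were seen. Some genes that this rule names are not reported here. Alternatives were 3 other scalings, each housekeeping gene left out, no filter and a stricter one, a pseudocount of 10, background subtraction and the interval as a further condition. The tools were scipy 1.17.1, pandas 2.3.3 and numpy 2.4.6 in Python 3.11.15.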

Additional observations from a re-analysis of the deposited data

Results flagged for a closer look

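Cxcl3, Csf2 and Fn1 stood on opposite sides of the 0 Gy sample after the 2 regimens, with counting intervals that exclude no difference in both contrasts and a 2-fold difference between regimens; these differences were not tested. The neutrophil chemokine gene Cxcl3 stood at −0.89 after 2 Gy × 5 and 1.14 after 7.5 Gy × 1 (log2). Csf2, encoding the myeloid growth factor GM-CSF, had 44, 21 and 79 counts and stood at −0.82 and 0.64. Fn1, encoding fibronectin and 1 of the markers of CD45-negative cells, had 1416, 1656 and 998 counts and stood at 0.47 and −0.71.

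Outside the 415 tested genes, 2 genes had counts above background in both irradiated T7 samples and not in the 0 Gy sample. Tnfsf10, encoding the death ligand TRAIL, had 5, 24 and 19 counts. Tnfsf8, encoding the ligand of CD30, had 14, 18 and 19 counts, all within a few counts of background.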

How the results depend on the processing

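The scaling was the choice that moved most values, since it shifts all genes at once. Relative to the housekeeping scaling, a median of ratios lowered the median of all genes by 0.44 after 2 Gy × 5 and 0.47 after 7.5 Gy × 1, total endogenous counts by 0.45 and 0.67, and the 9 pan-leukocyte genes by 0.79 and 0.81 (log2). With a median of ratios, 35 genes were higher and 23 lower after 2 Gy × 5, 48 higher and 25 lower after 7.5 Gy × 1, 23 higher after both and 10 lower after both. With total counts these values were 35 and 23, 29 and 49, and 21 and 15, with 16 genes lower after 7.5 Gy × 1 than after 2 Gy × 5. With the pan-leukocyte genes they were 17 and 52, 19 and 64, and 11 and 34, with 9 regimen-specific genes. In each case every gene higher after both was also among the 62. Of the 30 gene lists with tested members, 29 had a median above 0 after each regimen. This was 13 after 7.5 Gy × 1 with total counts, and 6 and 8 after the 2 regimens with the pan-leukocyte genes, and no list median of 1 or more changed sign.

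Other choices moved mainly the small counts. Of genes lower after 7.5 Gy × 1, 4 were left with counts above background required in all 3 samples and 4 with a pseudocount. Of genes lower after 7.5 Gy × 1 than after 2 Gy × 5, 1 and 2 were left in the same settings, 12 were found without a filter and 12 with background subtraction, and up to 7 with a housekeeping gene left out. Without a filter, 25 genes were higher after 7.5 Gy × 1 than after 2 Gy × 5, 18 lower after 2 Gy × 5 and 26 regimen-specific, and with background subtraction 14 were lower after 2 Gy × 5. The number higher after both was 47 to 72 over the settings that kept the housekeeping scaling. No paired analysis was possible because each condition has 1 sample, and for the same reason no sample could be left out of a group. Genes with counts near the sample backgrounds of 14.8 to 17.5 have only bounds on their folds.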

Other observations

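Some genes passed 2-fold for 1 regimen without the direct difference that would make them regimen-specific, and they were chosen here after their values were seen. After 2 Gy × 5 alone these included Gzma, a granule protease gene, with 621, 1258 and 1049 counts (1.27 and 0.55, log2), and Eomes, a transcription factor of cytotoxic lymphocytes, with 27, 54 and 49 counts (1.25 and 0.65). Tlr9, the sensor of unmethylated DNA, had 86, 147 and 101 counts (1.02 and 0.02). After 7.5 Gy × 1 alone they included the chemokine genes Ccl4 with 200, 323 and 626 counts (0.94 and 1.44) and Ccl24 with 40, 61 and 129 counts (0.86 and 1.48), and Il1b, the IL-1β gene, with 2858, 4524 and 8591 counts (0.91 and 1.38). The probe for NM_010846.1, not named by the annotation used here, had 75, 277 and 196 counts. It was higher after both regimens, at 2.13 and 1.18, and its level after 7.5 Gy × 1 was 0.516 (0.427 to 0.621) of that after 2 Gy × 5.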
